A study of Mus musculus with 28 samples.

Results

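The transcription factor ATF4 drives the response of cells to a shortage of amino acids, and 36 gene symbols of that response were looked up in islet RNA-seq of mice labelled as lacking Klf6 in β cells. A total of 35 of the 36 symbols were rows of the deposited matrix of 14219 genes. Mars1, the cytosolic methionyl-tRNA synthetase, was not listed under that symbol, and its older symbol Mars is given separately and not counted. The 35 comprised 7 regulators, 3 glutathione, secreted and receptor genes, 9 genes of amino acid synthesis and one-carbon metabolism, 7 amino acid carriers and 9 tRNA synthetases. All 35 passed the filter on low values, which kept 13591 genes.

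Each library came from the islets of 1 male mouse, aged 10 to 12 weeks, with C57Bl6 and 129sv given as strains. All mice carried floxed Klf6 alleles, written Klf6flox/flox. The mice labelled βKlf6KO (Klf6flox/flox;Ins1Cre/+) also carried Cre recombinase in the Ins1 gene, which is active in β cells, and the mice labelled control (Klf6flox/flox;Ins1+/+) had no Cre. There were 8 βKlf6KO and 8 control libraries after treatment with the insulin receptor antagonist S961, and 6 βKlf6KO and 6 control libraries after saline. Islets also hold α cells, δ cells, vessels and immune cells, in which the Ins1 Cre does not act, and they were cultured overnight before RNA was taken. In whole islets, fewer cells of a type and less RNA per cell cannot be told apart.

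When an amino acid runs short, uncharged tRNA activates the kinase GCN2, which phosphorylates the translation factor eIF2. General translation then slows, while ATF4 mRNA is translated more. Other kinases reach the same factor, among them PERK, which responds to unfolded protein in the endoplasmic reticulum (ER) and is needed for β-cell health. ATF4 protein binds C/EBP-ATF composite elements near genes that make, import and charge amino acids. Since much of this control acts on translation, the level of Atf4 mRNA is not a measure of ATF4 protein.

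The promoter windows of members were searched for the 8-base core TGATGNAA on both strands (TTNCATCA on the other), in RefSeq windows of 250 bases before to 50 bases after the gene start on GRCm38.p6. Of the 35 members, 30 had an entry, and 12 of those 30 (40.0%) held a match, against 4.51% of 27025 genes with entries. Slc7a5, Slc7a2, Eif4ebp1, Nars and Wars had no entry. Among the 12 were Chac1, Trib3, Slc7a11, Yars, Asns, Gars, Slc1a4, Pycr1, Iars, Tars and Vldlr, and a match is a description of letters, not of binding. Shown here, as the letters that the known ATF4 element shares, are matches of 7 members that end at least 5 bases before the gene start, each read 5′ to 3′ on the strand of its gene, with the match in capitals.
Chac1, chr2:119351034-119351071, plus strand: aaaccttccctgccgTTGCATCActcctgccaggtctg
Slc7a11, chr3:50443638-50443694, minus strand: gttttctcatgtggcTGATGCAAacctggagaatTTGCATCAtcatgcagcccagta
Asns, chr6:7693210-7693247, minus strand: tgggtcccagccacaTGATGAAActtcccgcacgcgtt
Gars, chr6:55037956-55037993, plus strand: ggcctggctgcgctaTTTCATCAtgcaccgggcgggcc
Pycr1, chr11:120643829-120643866, minus strand: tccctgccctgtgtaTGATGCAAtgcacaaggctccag
Tars, chr15:11399659-11399688, minus strand: gggccaggagtcccgTTGCATCAgctggtt
Vldlr, chr19:27216805-27216842, plus strand: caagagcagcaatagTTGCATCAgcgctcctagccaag

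Of these 7, Slc7a11 held a pair of matches before the start, whose first bases lay 66 and 47 bases before it. The match of Asns lay 23 bases before the start. Human ASNS is known for an element of this kind in its promoter.

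Reads over the listed genes ranged from 28868638 to 45001633 per library. A gene with no read could thus have had up to 3 reads, or 0.0685 to 0.105 CPM (read counts scaled to a common library size), a limit that covers counting error only. The lowest value of any member was 2.61 CPM, for Stc2 in control S961 replicate 2. Klf6 itself did not separate the labels. It ran from 6.38 to 7.94 log2 CPM in libraries labelled βKlf6KO S961 (median 7.34), against 6.18 to 8.42 in those labelled control S961 (median 6.79). After saline it ran from 6.69 to 7.41 in libraries labelled βKlf6KO, against 6.35 to 7.67 in those labelled control, with medians of 6.895 and 6.985. The log2 ratio of Ins1 to Ins2 had a median of -2.155 in libraries labelled βKlf6KO S961 (-2.25 to -0.86), against -1.275 in those labelled control S961 (-2.38 to -0.26). After saline its median was -1.25 in libraries labelled βKlf6KO (-1.81 to -1.05), against -1.785 in those labelled control (-2.35 to -0.49). All these ranges overlapped. Counts summed over the gene cannot show whether the floxed part was lost, and islet cells without Cre keep Klf6. Genotype below is therefore the label of a library, and each direction carries that doubt. The β-cell markers summed to at least 56970 CPM in every library, and acinar markers to at least 3921 CPM.

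A total of 3 libraries stood apart on the first principal component of all genes, which held 54.9% of the variance. They were control S961 replicate 2 (score 139.6), control saline replicate 4 (98.4) and control S961 replicate 8 (79.8). Scores of libraries labelled βKlf6KO S961 ran from -44.0 to 48.1, and those of libraries labelled βKlf6KO saline from -46.3 to 14.1. Across genes, its loadings followed transcript GC content (Spearman's rho of -0.845 for 13584 genes, a description, since genes are not independent). Values without them are given beside those of many of the genes named.

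Islets held most members at easily counted levels. Per kilobase of transcript, the level was highest for Asns, the enzyme that makes asparagine, at a median of 235 CPM per kb over 28 libraries (range 169 to 300). Atf4 stood at 232 CPM per kb (183 to 326) and Gars, the glycyl-tRNA synthetase, at 219 (184 to 263), ranges that overlapped those of Asns. The lowest levels per length were those of Slc7a11, the cystine carrier of system xc-, at 5.58 CPM per kb (3.20 to 13.1), the transcription factor Cebpb at 3.71 (2.27 to 4.72) and Stc2, the secreted glycoprotein stanniocalcin 2, at 1.64 (0.663 to 4.92). Ddit3, the transcription factor CHOP that marks sustained stress, stood at 16.0 CPM per kb (3.50 to 24.3).

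**Figure D1:**
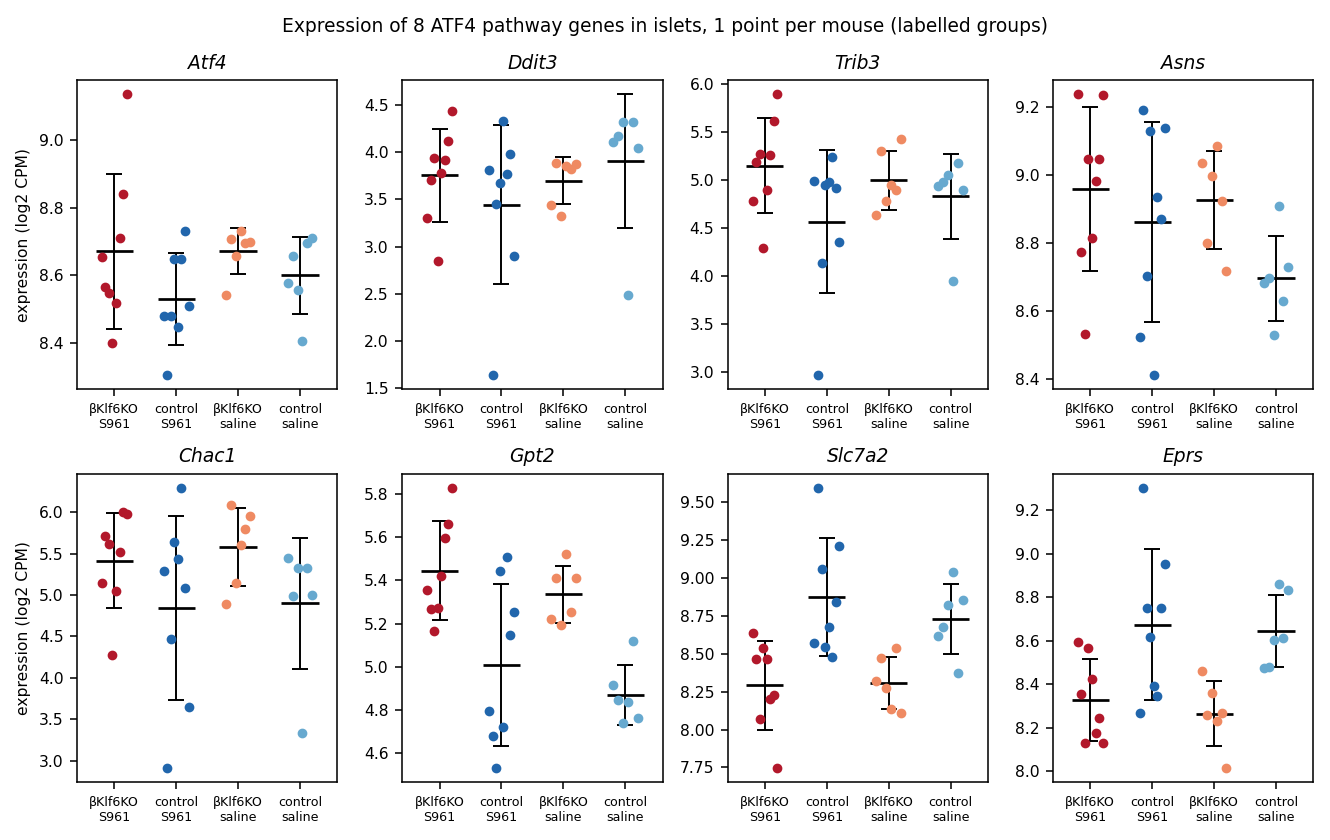
Expression in log2 CPM (y axes, each gene on its own scale) of 8 genes in libraries labelled βKlf6KO S961, control S961, βKlf6KO saline and control saline. Points are libraries, 1 per mouse, and bars are the mean and SD; Gpt2 sat higher and Slc7a2 lower in both βKlf6KO groups, while Atf4 groups overlapped.

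Between the labelled genotypes, most of the ATF4 genes did not differ detectably, and the 2 that did moved in opposite directions. After S961, Gpt2, the mitochondrial alanine aminotransferase, was higher in libraries labelled βKlf6KO, and Slc7a2, a carrier of arginine and lysine, was lower. These were 2 of 35 members (5.71%), beside 4.36% of all genes tested that passed at an adjusted p below 0.05 (limma, Benjamini-Hochberg over 13591 genes). The 1 higher call compares with 2.35% of all genes called higher, and the 1 lower call with 2.01% called lower. After saline, 0 of 35 members passed, beside 2.78% of all genes (2.09% higher and 0.692% lower), and 5 members had an unadjusted p below 0.05, beside 14.4% of all genes. With voom weights the counts were also 2 after S961 and 0 after saline. Unadjusted, 6 members were below 0.05 after S961, beside 22.9% of all genes. Members other than Atf4, Ddit3, Trib3, Asns, Chac1, Gpt2, Slc7a2 and Eprs that are singled out were chosen after their values were seen.

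Over all 35 members the median log2 difference, βKlf6KO minus control, was 0.14 after S961, beside 0.02 over all genes, and 0.07 after saline, beside -0.00. Members lay above 0 in 29 of 35 cases after S961, beside 52.4% of all genes, and 23 of 35 after saline, beside 49.9%. Without the 3 libraries that stood apart these counts were 23 and 17, with medians of 0.07 and -0.01, beside -0.01 and -0.03 over all genes. The comparisons share no library. The sign was the same in both for 29 of 35 members (82.9%), beside 81.7% of all genes, so that share was near the background. Both estimates were above 0 for 23 members and below 0 for 6, beside 5710 and 5400 of 13591 genes.

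**Figure D2:**
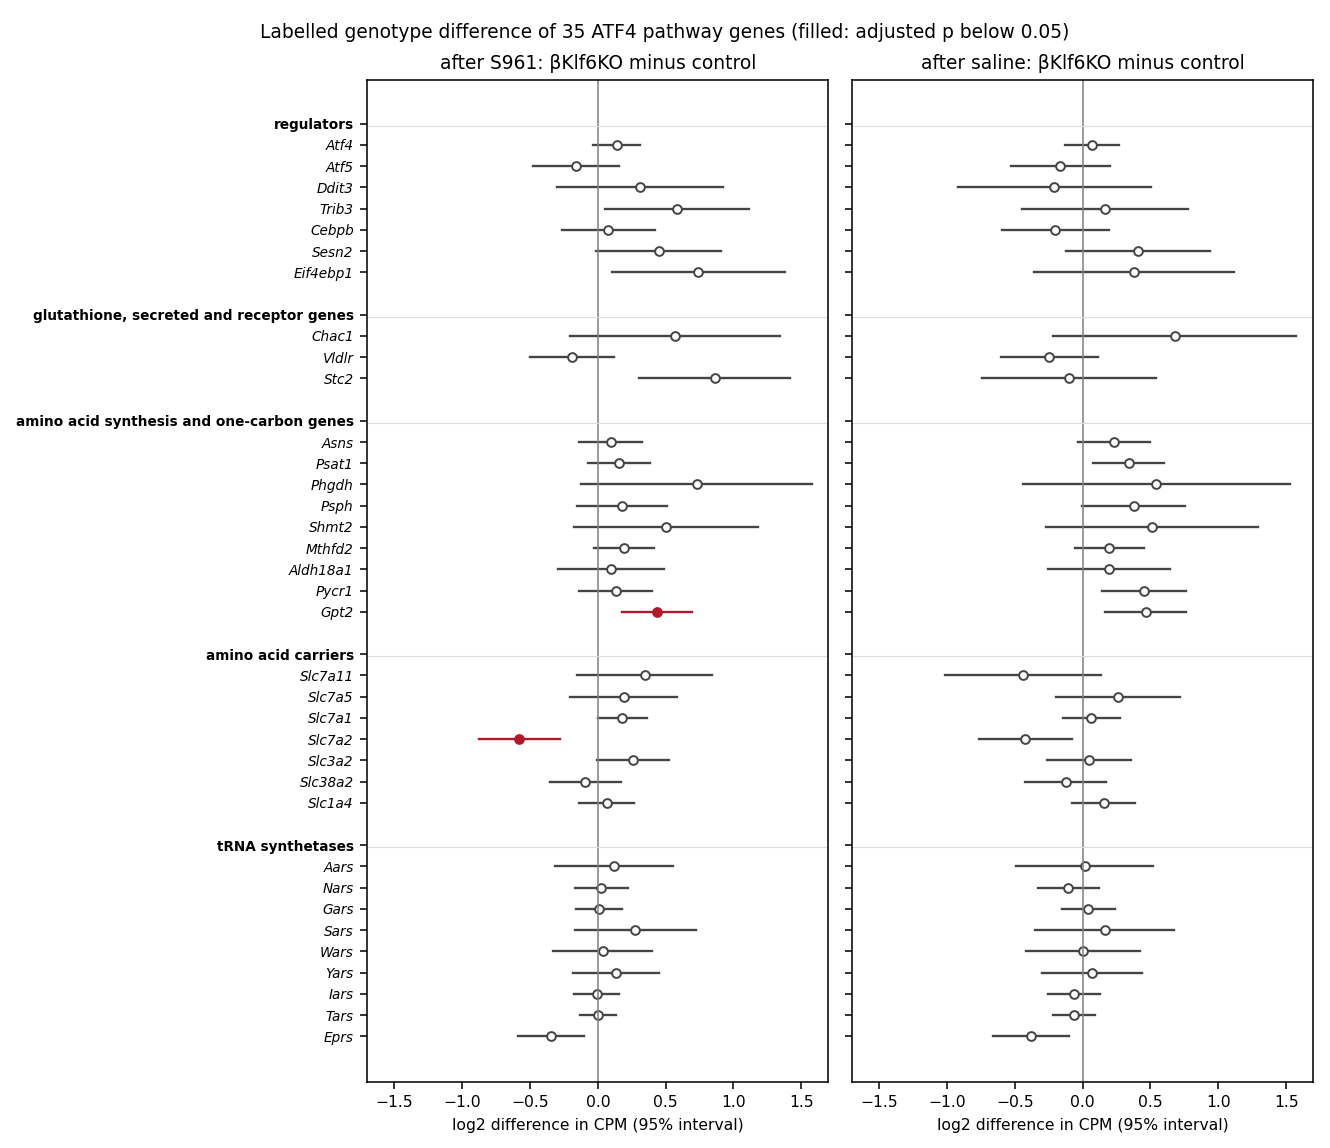
Log2 difference in CPM between libraries labelled βKlf6KO and control (x axes) for 35 genes ordered by role, after S961 (left) and after saline (right). Points are limma estimates with 95% intervals, and filled red points have an adjusted p below 0.05; only Gpt2 and Slc7a2 after S961 are filled, and all 9 synthesis genes lie right of 0 in both panels.

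Among the regulators, none of 7 passed in either comparison, beside 4.36% of all genes after S961 and 2.78% after saline. Atf4 (ENSMUSG00000042406, GRCm38 chr15:80255184-80257541, plus strand) ran from 8.40 to 9.14 log2 CPM in libraries labelled βKlf6KO S961 (median 8.61), against 8.30 to 8.73 in those labelled control S961 (median 8.49). The groups overlapped, with 2 βKlf6KO libraries, at 8.84 and 9.14, above every control library. The difference was 0.14 (95% interval -0.03 to 0.31, adjusted p = 0.323), and after saline it was 0.07 (-0.13 to 0.27, adjusted p = 0.831). In this fit, a rise of Atf4 mRNA by more than 0.31 on the log2 scale lay outside both intervals. Over 12 other settings the estimate ran from -0.06 to 0.23 after S961 and from -0.05 to 0.11 after saline, never passing. The intervals of those settings are not given here. Under a correction for GC content both estimates were below 0, at -0.06 after S961 and -0.05 after saline.

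Trib3, a pseudokinase that ATF4 and CHOP induce and that feeds back on both, ran from 4.30 to 5.89 log2 CPM in libraries labelled βKlf6KO S961 (median 5.23), against 2.97 to 5.24 in those labelled control S961 (median 4.93). In the βKlf6KO group 7 of 8 libraries lay above the control mean. The difference of 0.58 (SE 0.26) did not pass (adjusted p = 0.176), and within lanes it was -0.43, 1.07, 0.58 and 1.12. It was 0.28 without the 3 libraries that stood apart (adjusted p = 0.396), 0.36 without control S961 replicate 2 alone and 0.28 under the GC correction (adjusted p = 0.115). After saline Trib3 differed by 0.17 (SE 0.30, adjusted p = 0.877), and by -0.01 without the 3 libraries that stood apart.

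Ddit3 ran from 2.85 to 4.44 log2 CPM in libraries labelled βKlf6KO S961 (median 3.85), against 1.64 to 4.33 in those labelled control S961 (median 3.72). The lowest 2 control values, 1.64 and 2.90, were those of control S961 replicates 2 and 8. The difference was 0.31 (95% interval -0.30 to 0.93, adjusted p = 0.542) with all libraries, 0.054 without control S961 replicate 2 and -0.08 without the 3 that stood apart. After saline it was -0.21 (-0.92 to 0.50, adjusted p = 0.865), and -0.49 without the 3 (adjusted p = 0.160). Ddit3 overlaps the end of Mars on the other strand, and since the strand setting of the counting is not known here, some of its reads may belong to Mars.

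The other 4 regulators had differences from -0.16 to 0.74 after S961. The top one was Eif4ebp1, which encodes the translation repressor 4E-BP1, at 0.74 (SE 0.31, adjusted p = 0.153). Sesn2, which encodes the leucine sensor sestrin 2, was at 0.45 (SE 0.22, adjusted p = 0.229). Atf5, which like Atf4 is translated more under stress, was at -0.16 after both treatments, and Cebpb at 0.08 after S961 and -0.20 after saline. Without the 3 libraries that stood apart, Eif4ebp1 was at 0.43 and Sesn2 at 0.13, neither passing, and Atf5 was called lower after S961, at -0.35 (limma adjusted p = 0.0422).

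Chac1, which breaks down glutathione and is a sensitive ATF4 target, had wide spreads. It ran from 4.28 to 6.01 log2 CPM in libraries labelled βKlf6KO S961 (median 5.57), against 2.91 to 6.30 in those labelled control S961 (median 5.19). In the saline groups it ran from 4.89 to 6.08 in libraries labelled βKlf6KO (median 5.70), against 3.33 to 5.44 in those labelled control (median 5.16). The groups overlapped after both treatments. The difference was 0.57 (95% interval -0.21 to 1.34, adjusted p = 0.374) after S961 and 0.68 (-0.22 to 1.58, adjusted p = 0.537) after saline. These were 0.045 after S961 (adjusted p = 0.939) and 0.37 after saline (adjusted p = 0.565) without the 3 libraries that stood apart. Leaving out control S961 replicate 2 alone gave 0.29 after S961.

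Stc2, induced by ER stress, ran from 2.60 to 4.28 log2 CPM in libraries labelled βKlf6KO S961 (median 3.13), against 1.38 to 3.65 in those labelled control S961 (median 2.23). All 8 βKlf6KO libraries lay above the control mean, though the groups overlapped. Its difference of 0.86 (SE 0.27) was the highest of the 35 but did not pass (limma adjusted p = 0.0618), and after saline it was -0.10 (SE 0.31). After S961 it passed in 5 of 12 other settings, where the estimate ran from 0.71 to 0.90 and adjusted p reached 0.190. Among those 5 were lane as a covariate (adjusted p = 0.0489), leaving out the 3 libraries that stood apart (0.90, adjusted p = 0.0327) and the GC correction (0.85, adjusted p = 0.0253). In that order, 4.93%, 6.31% and 18.8% of all genes passed. Of the 28 fits that left out 1 library, Stc2 passed in 2, with adjusted p up to 0.152. Vldlr, a lipoprotein receptor that ATF4 induces under stress, was at -0.19 after S961 and -0.25 after saline (adjusted p = 0.458 and 0.595), and at -0.026 and -0.13 without the 3 libraries.

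The 9 genes of amino acid synthesis and one-carbon metabolism all had estimates above 0 in both comparisons, beside 52.4% of all genes after S961 and 49.9% after saline, with a median log2 difference of 0.18 after S961 and 0.38 after saline. Of these, 1 passed after S961, beside 4.36% of all genes, and 0 after saline, beside 2.78%. All 9 remained above 0 after saline without the 3 libraries that stood apart (median 0.27), under quantile scaling (0.43), median centring (0.37) and the GC correction (0.38). After S961 the count above 0 was 7 of 9 without those libraries (median 0.10), 8 of 9 under the GC correction and 9 of 9 under both other scalings.

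Gpt2 (ENSMUSG00000031700, chr8:85492576-85527560, plus strand) ran from 5.17 to 5.83 log2 CPM in libraries labelled βKlf6KO S961 (median 5.39), against 4.53 to 5.51 in those labelled control S961 (median 4.97). All 8 βKlf6KO libraries lay above the control mean, and the groups overlapped. The difference was 0.44 (SE 0.13, 95% interval 0.18 to 0.69), a 1.35-fold higher level (limma adjusted p = 0.0469). Within lanes 4 to 7 it was 0.20, 0.64, 0.36 and 0.54, with 2 libraries a side in each. Without the 3 libraries that stood apart it was 0.42 and no longer passed (adjusted p = 0.055), nor did it pass under median centring (0.38, adjusted p = 0.0779) or with just the S961 groups fitted (adjusted p = 0.169).

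After saline, Gpt2 ran from 5.19 to 5.52 log2 CPM in libraries labelled βKlf6KO (median 5.33), against 4.74 to 5.12 in those labelled control (median 4.84). These groups did not overlap. The difference was 0.47 (SE 0.14), of similar size to that after S961, and did not pass (limma adjusted p = 0.0832). It passed when just the saline groups were fitted (adjusted p = 0.0128) and under the GC correction (0.43, adjusted p = 0.0485). In those fits 3.44% and 10.1% of all genes passed.

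The call of Gpt2 after S961 was close to the threshold and was lost in 18 of the 28 fits that left out 1 library, with adjusted p from 0.0512 to 0.108 in those. They were the fits without control S961 replicates 1, 2, 3 or 5, βKlf6KO S961 replicates 5, 6, 7 or 8, control saline replicates 1, 2, 3 or 6, or any βKlf6KO saline library. Its estimate stayed between 0.37 and 0.51 over all 28 fits.

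Asns ran from 8.53 to 9.24 log2 CPM in libraries labelled βKlf6KO S961 (median 9.02), against 8.41 to 9.19 in those labelled control S961 (median 8.90). In the saline groups it ran from 8.72 to 9.09 in libraries labelled βKlf6KO (median 8.96), against 8.53 to 8.91 in those labelled control (median 8.69), where all 6 βKlf6KO libraries lay above the control mean. The difference was 0.10 (95% interval -0.14 to 0.33, adjusted p = 0.618) after S961 and 0.23 (-0.04 to 0.50, adjusted p = 0.457) after saline, and both intervals included 0. The differences were 0.20 and 0.27 without the 3 libraries that stood apart, neither passing.

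Some genes of serine and one-carbon metabolism varied widely between libraries, each of 1 mouse. Deviations of Phgdh and Shmt2 from their group means had r of -0.96 and -0.97 with the score on the first component. Phgdh, the first enzyme of serine synthesis, had the widest spread within groups of the 35, at an SD of 0.874 on the log2 scale, followed by Chac1 at 0.796 and Shmt2, which passes serine carbon to folate in mitochondria, at 0.693. Phgdh ran from 5.10 to 7.32 log2 CPM in libraries labelled βKlf6KO S961, against 3.23 to 6.38 in those labelled control S961. Its difference of 0.73 (SE 0.41, adjusted p = 0.296) was within that spread, and was 0.28 without the 3 libraries that stood apart. Psat1, the next enzyme, ran after saline from 6.95 to 7.23 log2 CPM in libraries labelled βKlf6KO, against 6.47 to 6.89 in those labelled control. Those groups did not overlap, yet the difference of 0.34 (SE 0.13) did not pass (limma adjusted p = 0.179), and was 0.28 without the 3 libraries (adjusted p = 0.254).

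Pycr1, the last enzyme of proline synthesis, was at 0.45 (SE 0.15, adjusted p = 0.108) after saline and 0.13 (SE 0.13, adjusted p = 0.554) after S961. It was at 0.37 after saline and -0.0049 after S961 without the 3 libraries that stood apart. Aldh18a1, which starts the same branch, was at 0.19 after saline and 0.09 after S961, and at 0.015 and -0.17 without the 3. Psph, the last enzyme of serine synthesis, and Mthfd2, a mitochondrial folate enzyme, were at 0.18 and 0.20 after S961 and at 0.38 and 0.20 after saline (0.061 and 0.086, and 0.27 and 0.13, without the 3). None of these passed.

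Of the 7 amino acid carriers, 1 passed after S961, beside 4.36% of all genes, and 0 after saline, beside 2.78%. Slc7a2 (ENSMUSG00000031596, chr8:40862396-40922308, plus strand) encodes CAT2, a carrier of cationic amino acids. It ran from 7.74 to 8.64 log2 CPM in libraries labelled βKlf6KO S961 (median 8.34), against 8.48 to 9.59 in those labelled control S961 (median 8.76). All 8 βKlf6KO libraries lay below the control mean, and the groups overlapped. The difference was -0.58 (SE 0.14, 95% interval -0.88 to -0.28), or 0.669 times the control level (limma adjusted p = 0.0266).

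The highest Slc7a2 values, 9.59 and 9.21, were those of control S961 replicates 2 and 8, both among the 3 libraries that stood apart. Without the 3 the difference was -0.40, and it passed (limma adjusted p = 0.0488). Within lanes 4 to 7 it was 0.03, -0.67, -0.63 and -1.04, so lane 4 showed none of it. The call was lost in 5 of the 28 fits that left out 1 library, those without control S961 replicates 2 or 3 or βKlf6KO S961 replicates 6, 7 or 8, with adjusted p from 0.0534 to 0.0642, and also with just the S961 groups fitted (adjusted p = 0.12).

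After saline, Slc7a2 ran from 8.11 to 8.53 log2 CPM in libraries labelled βKlf6KO (median 8.30), against 8.37 to 9.04 in those labelled control (median 8.75). All 6 βKlf6KO libraries again lay below the control mean. The difference of -0.42 (SE 0.17) did not pass (limma adjusted p = 0.199). Within lanes 4 to 7 it was -0.32, -0.45, -0.57 and -0.53, each value from 1 library of a genotype and 2 of the other.

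The other 6 carriers ran from -0.09 to 0.35 after S961 and from -0.44 to 0.26 after saline, with no call. Both ends after saline were carriers that pair with the heavy chain Slc3a2, namely Slc7a11 at -0.44 (SE 0.28) and the leucine carrier Slc7a5 at 0.26 (SE 0.22). Slc3a2 itself was at 0.26 (SE 0.13, adjusted p = 0.230) after S961. Slc7a1, which encodes CAT1, a carrier of the same amino acids as CAT2, was at 0.18 (SE 0.09, adjusted p = 0.220) after S961 and 0.06 after saline. The proline and glutamine carrier Slc38a2 was at -0.09 and the alanine and serine carrier Slc1a4 at 0.07 after S961. With the 3 libraries that stood apart left out, Slc7a11 was at -0.28 and Slc7a5 at 0.095 after saline. After S961, Slc7a11 was then at 0.59 (adjusted p = 0.0791), beside 0.35 with all libraries, Slc3a2 at 0.15, Slc7a1 at 0.15, Slc38a2 at 0.067 and Slc1a4 at 0.0026.

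The 9 cytosolic tRNA synthetases had a median difference of 0.02 after S961 and 0.00 after saline. None was called, beside 4.36% of all genes after S961 and 2.78% after saline. Eprs (ENSMUSG00000026615, chr1:185363044-185428360, plus strand), which charges both glutamate and proline tRNA, had the smallest p. It ran from 8.13 to 8.59 log2 CPM in libraries labelled βKlf6KO S961 (median 8.30), against 8.27 to 9.30 in those labelled control S961 (median 8.68), and the groups overlapped. The difference was -0.35 (SE 0.12, adjusted p = 0.0828), and all 8 βKlf6KO libraries lay below the control mean. Within lanes 4 to 7 it was 0.14, -0.46, -0.40 and -0.67, and without the 3 libraries that stood apart -0.19 (adjusted p = 0.232).

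After saline Eprs ran from 8.01 to 8.46 log2 CPM in libraries labelled βKlf6KO (median 8.26), against 8.48 to 8.86 in those labelled control (median 8.61). These groups did not overlap, and the difference of -0.38 (SE 0.14) did not pass (limma adjusted p = 0.149), nor did it without the 3 libraries (-0.34, adjusted p = 0.0718). Under the GC correction Eprs passed in both comparisons, at -0.22 after S961 (adjusted p = 0.0104) and -0.28 after saline (adjusted p = 0.00724). Under that correction 18.8% of all genes passed after S961 and 10.1% after saline. The other 8 synthetases lay between -0.01 and 0.28 after S961 and between -0.11 and 0.16 after saline. Under median centring 3 of the 9 lay above 0 after S961, with a median of -0.03. Tars, the threonyl-tRNA synthetase, was the steadiest of the 35, with a within-group SD of 0.114. Mars, counted apart, was at 0.07 after S961 (adjusted p = 0.778) and 0.12 after saline (adjusted p = 0.835).

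In the main fit, no gene of the 13591 tested passed between S961 and saline, so the 0 calls among members equal the background. Against saline, 0 of 35 members passed in libraries labelled βKlf6KO and 0 of 35 in those labelled control, beside 0% of all genes in each (limma, and 0 members with voom weights). Unadjusted, 2 members were below 0.05 in libraries labelled βKlf6KO, beside 3.04% of all genes, and 0 in those labelled control, beside 0.765%. The median log2 difference over members, S961 minus saline, was 0.02 in libraries labelled βKlf6KO and -0.02 in those labelled control. Atf4 differed by -0.00 (95% interval -0.19 to 0.19) in libraries labelled βKlf6KO and by -0.07 (-0.26 to 0.12) in those labelled control.

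**Figure D3:**
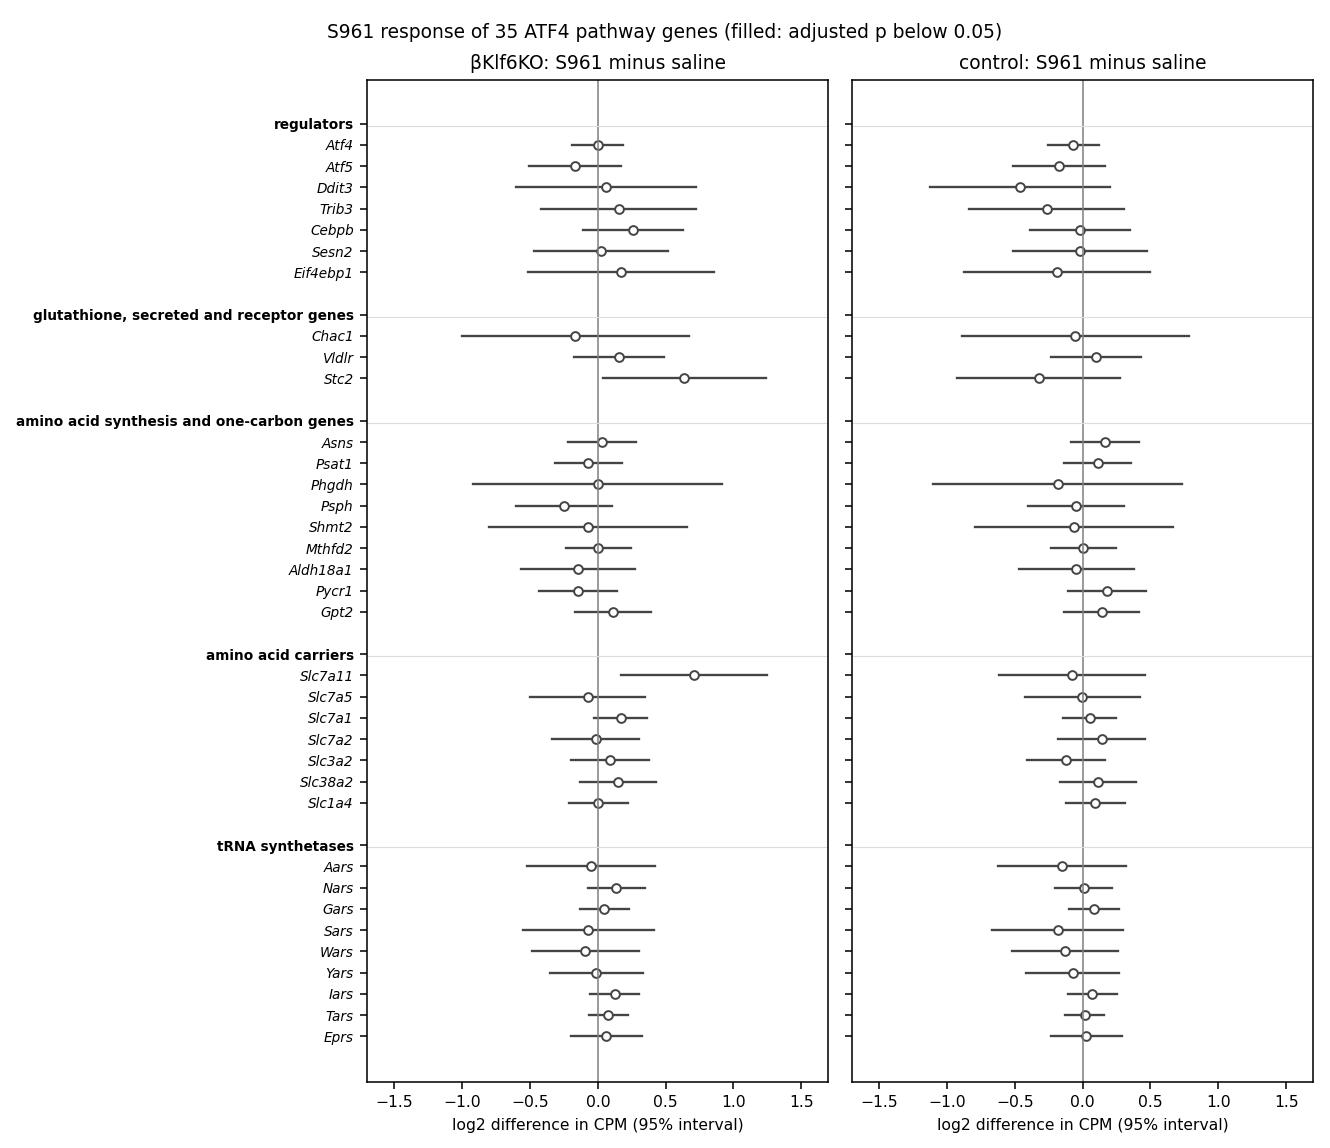
Log2 difference in CPM between S961 and saline libraries (x axes) for 35 genes ordered by role, in mice labelled βKlf6KO (left) and control (right). Points are limma estimates with 95% intervals; no point is filled, since none had an adjusted p below 0.05, and Slc7a11 at 0.71 and Stc2 at 0.64 lie furthest right in the left panel.

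The members with the lowest p in libraries labelled βKlf6KO were Slc7a11 and Stc2. Slc7a11 ran from 5.27 to 6.75 log2 CPM after S961 (median 6.02), against 4.88 to 5.70 after saline (median 5.31). In libraries labelled control it ran from 5.05 to 6.91 after S961 (median 5.47), against 4.92 to 6.55 after saline (median 5.64). The difference was 0.71 (95% interval 0.17 to 1.25, adjusted p = 0.9997) in libraries labelled βKlf6KO and -0.08 (-0.61 to 0.46, adjusted p = 0.973) in those labelled control. Stc2 was at 0.64 (0.04 to 1.24) in libraries labelled βKlf6KO and -0.32 (-0.92 to 0.28) in those labelled control.

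The test of the difference between the S961 responses gave 0 of 35 members, beside 0% of all genes (limma, and 0 members with voom weights), and 2 with an unadjusted p below 0.05, beside 2.58%. Those 2 were Stc2 at 0.96 (95% interval 0.11 to 1.81) and Slc7a11 at 0.79 (0.03 to 1.55), βKlf6KO minus control. They were 1.05 and 0.87 without the 3 libraries that stood apart, neither passing. In libraries labelled control all 7 regulators lay below 0 after S961, beside 6750 of all 13591 genes. They ran from -0.46 for Ddit3 to -0.02 for Cebpb and Sesn2, and none passed. Without the 3 libraries Sesn2 was at 0.11 there, and under the GC correction Atf4 was at 0.078 and Atf5 at 0.098. In libraries labelled βKlf6KO 5 of the 7 lay above 0, beside 6901 of all 13591 genes. These comparisons share their S961 or saline libraries with the genotype comparisons, so they are not separate evidence.

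Genes beside the 35 gave a mixed picture. Of 15 other ATF4 targets 14 were listed, and Fgf21 was not analysed here. After S961, 2 of the 14 were higher in libraries labelled βKlf6KO and 0 lower, beside 2.35% and 2.01% of all genes, with a median log2 difference of 0.53, and after saline 0 passed, beside 2.78%, with a median of 0.05. Nupr1, a stress-induced nuclear protein that acinar cells also express strongly, ran from 10.86 to 12.65 log2 CPM in libraries labelled βKlf6KO S961 (median 10.94), against 7.84 to 11.29 in those labelled control S961 (median 10.14). Its difference was 1.25 (SE 0.37, limma adjusted p = 0.0486). Ddit4, which encodes the mTORC1 inhibitor REDD1, ran from 5.21 to 5.93 log2 CPM in libraries labelled βKlf6KO S961, against 3.59 to 5.17 in those labelled control S961, with no overlap. Its difference was 0.69 (SE 0.18, limma adjusted p = 0.0308).

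Without the 3 libraries that stood apart, Nupr1 was at 1.04 and Ddit4 at 0.57, both passing (adjusted p = 0.0394 and 0.0278), while the median of the 14 fell to 0.11, against 0.53 with them. The call of Nupr1 was lost in 22 of 28 fits that left out 1 library, with adjusted p up to 0.115. It held without control saline replicate 4, control S961 replicates 1, 7 or 8 or βKlf6KO S961 replicates 1 or 4. That of Ddit4 was lost in 6, without control S961 replicates 2, 3 or 5 or βKlf6KO S961 replicates 6, 7 or 8. Under the GC correction Ddit4 was at 0.38 (adjusted p = 0.286), and under quantile scaling Nupr1 was at 1.13 (adjusted p = 0.0757). With just the S961 groups fitted neither passed (adjusted p = 0.168 for Nupr1 and 0.117 for Ddit4). The acinar marker sums ran from 14291 to 59174 CPM in libraries labelled βKlf6KO S961, against 3921 to 22442 CPM in those labelled control S961, with all 6 acinar markers above 0 and none passing, and their part in the result for Nupr1 was not tested.

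The ER chaperones of the ATF6 and XBP1 branches, which respond to unfolded protein, lay the other way. After S961, 2 of 13 were lower in libraries labelled βKlf6KO and 0 higher, beside 2.01% and 2.35% of all genes. Of the 13, 12 had estimates below 0, beside 47.6% of all genes, and the median was -0.34. Pdia4, a disulfide isomerase of the ER, ran from 7.62 to 7.91 log2 CPM in libraries labelled βKlf6KO S961 (median 7.78), against 7.97 to 8.46 in those labelled control S961 (median 8.13), with no overlap. Its difference of -0.38 (SE 0.08, limma adjusted p = 0.00787) passed in all 28 fits that left out 1 library, and was -0.24 (adjusted p = 0.112) under quantile scaling. Pdia6, of the same family, was at -0.34 (SE 0.10, limma adjusted p = 0.0471), and its call was lost in 22 of those 28 fits (adjusted p up to 0.0973). It held in the fits without control saline replicate 4, control S961 replicate 4 or 8, or βKlf6KO replicate 1 or 2 of saline or 3 of S961. Under quantile scaling it was at -0.24 (adjusted p = 0.336). With just the S961 groups fitted neither passed (adjusted p = 0.0621 for Pdia4 and 0.127 for Pdia6). After saline 0 of 13 passed, with a median of -0.11 and 10 of 13 below 0, beside 50.1% of all genes.

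No gene of the eIF2 kinases and phosphatase list (7), the other cytosolic tRNA synthetases (10) or the mitochondrial tRNA synthetases (17) passed in either genotype comparison. Their medians lay between -0.07 and 0.09 after S961 and between -0.06 and 0.04 after saline. The background of 4.36% and 2.78% applies to these lists as well.

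Some markers of proliferation and of cell types differed between the labels. After S961, 4 of 6 proliferation markers and 3 of 5 fibroblast and stellate markers were higher in libraries labelled βKlf6KO, beside 2.35% of all genes. Of the β-cell markers, 3 of 8 were lower, beside 2.01% of all genes. After saline, 6 of 6 proliferation, 2 of 5 fibroblast and stellate, 2 of 6 macrophage and 2 of 4 listed lymphocyte markers were higher, beside 2.09%. Lower were 2 of 8 β-cell markers, beside 0.692%. No marker of α, δ, PP, acinar, duct or endothelial cells passed in either comparison, and none of macrophages or lymphocytes after S961. Proliferation markers summed to 31.4 to 60.5 CPM in libraries labelled βKlf6KO S961, against 5.47 to 81.4 CPM in those labelled control S961, and to 70.5 to 108 CPM in libraries labelled βKlf6KO saline, against 5.19 to 25.8 CPM in those labelled control saline. Fibroblast and stellate markers summed to 36.8 to 108 CPM in libraries labelled βKlf6KO S961, against 17.5 to 56.2 CPM in those labelled control S961. The part of these markers in the results for Gpt2 and Slc7a2 was not tested.

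The clearest pattern across the 35 genes ran between libraries within groups, along the component that tracked GC content. Each value was taken as its deviation from the mean of its group, and Pearson's r with the component score was computed over 28 libraries, as a description. Of the 35, 20 (57.1%) had r below -0.5, beside 37.4% of all genes tested, and 8 (22.9%) had r above 0.5, beside 39.3%. The other 7 lay between. All these genes share the same 28 libraries, and the score was itself computed from all genes.

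**Figure D4:**
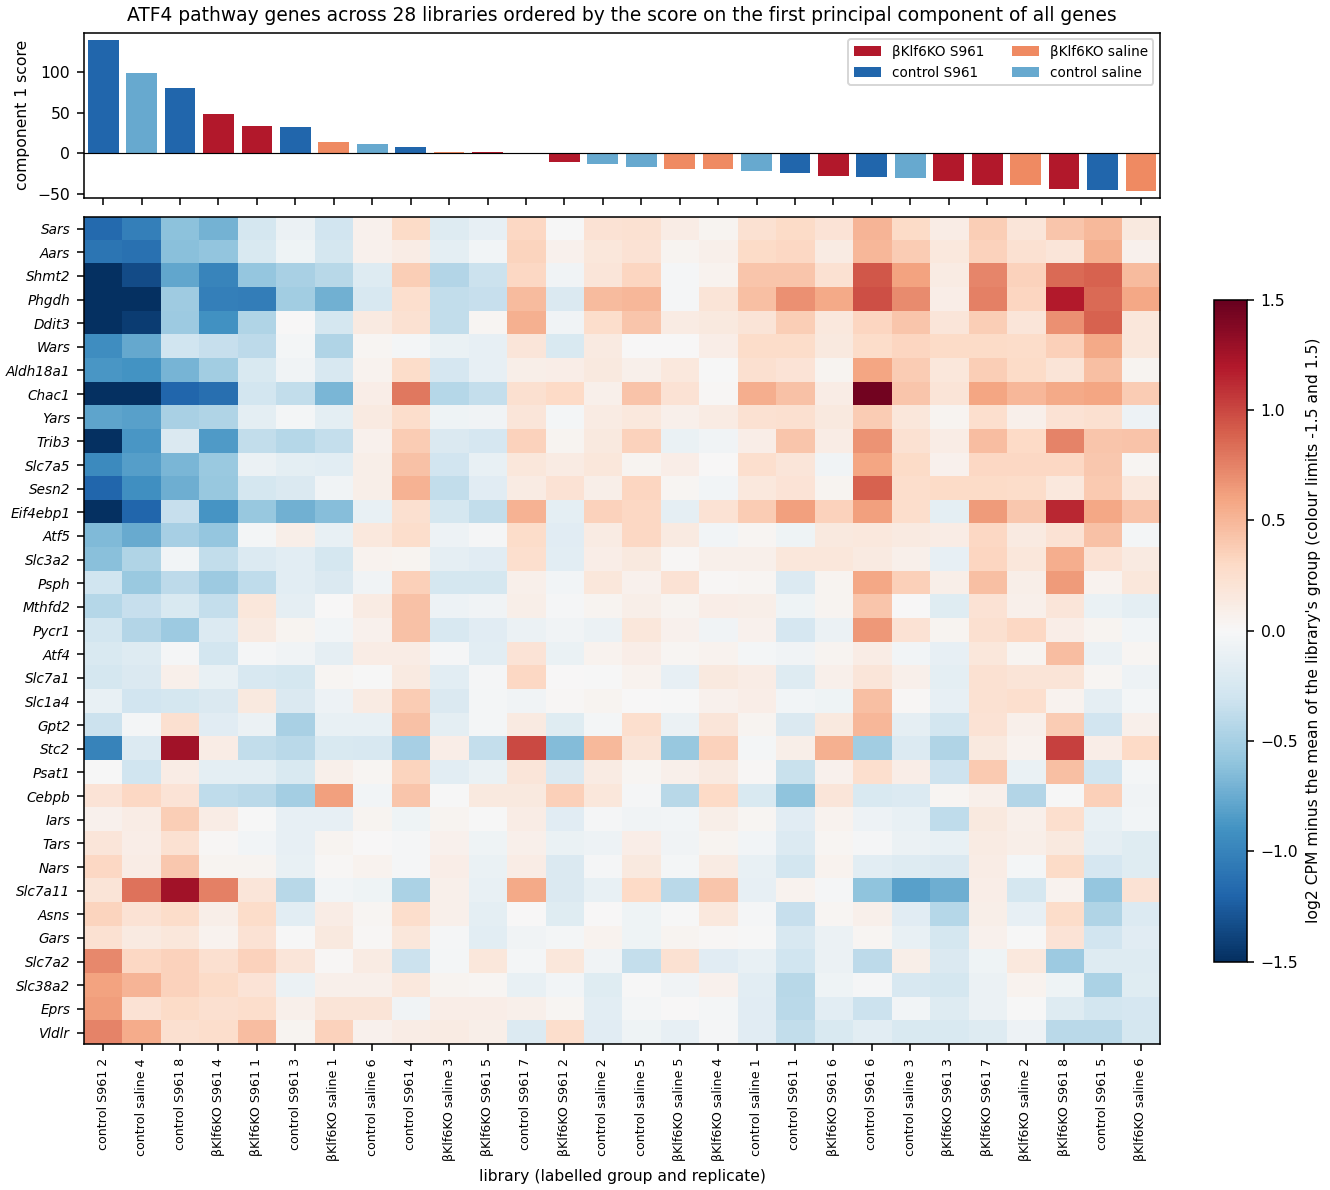
Deviation of 35 genes from the mean of each library's group (lower panel, log2 CPM, rows ordered by r with the component) in 28 libraries ordered by their score on the first component (upper panel, bars coloured by labelled group). The 3 libraries at the left have scores of 139.6, 98.4 and 79.8, low values for the upper rows from Sars to Atf5 and high values for Vldlr, Eprs, Slc38a2 and Slc7a2 at the bottom.

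The group with r below -0.5 included Sars (-0.98), Aars (-0.97), Shmt2 (-0.97), Phgdh (-0.96), Ddit3 (-0.96), Chac1 (-0.94), Trib3 (-0.93), Sesn2 (-0.92) and Atf5 (-0.86), with Atf4 itself at -0.55. The group with r above 0.5 held Vldlr (0.93), Eprs (0.91), Slc38a2 (0.90), Slc7a2 (0.80), Gars (0.61), Asns (0.60), Slc7a11 (0.58) and Nars (0.57). Gpt2 was at -0.29 and Psat1 at -0.21. Members within the first group had a median pairwise r of 0.82, those within the second 0.62, and members of different groups -0.55, an order that the choice of both groups by 1 score fixes. The median over all pairs was 0.34.

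Asns and Chac1, both long known as ATF4 targets, stood on opposite sides of this component. Median GC content of the longest transcript was 53.7% for the 20 members and 44.3% for the 8, beside 49.2% over all genes tested. Across members, Spearman's rho between GC content and r was -0.66 over 35 genes, which are not independent. Exceptions were Ddit3, at 45.6% GC with r of -0.96, and Cebpb, at 67.2% GC with r of 0.18. Without the 3 libraries that stood apart, 34 of 35 members kept the sign of r, with 16 below -0.5 and 4 above 0.5.

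**Figure D5:**
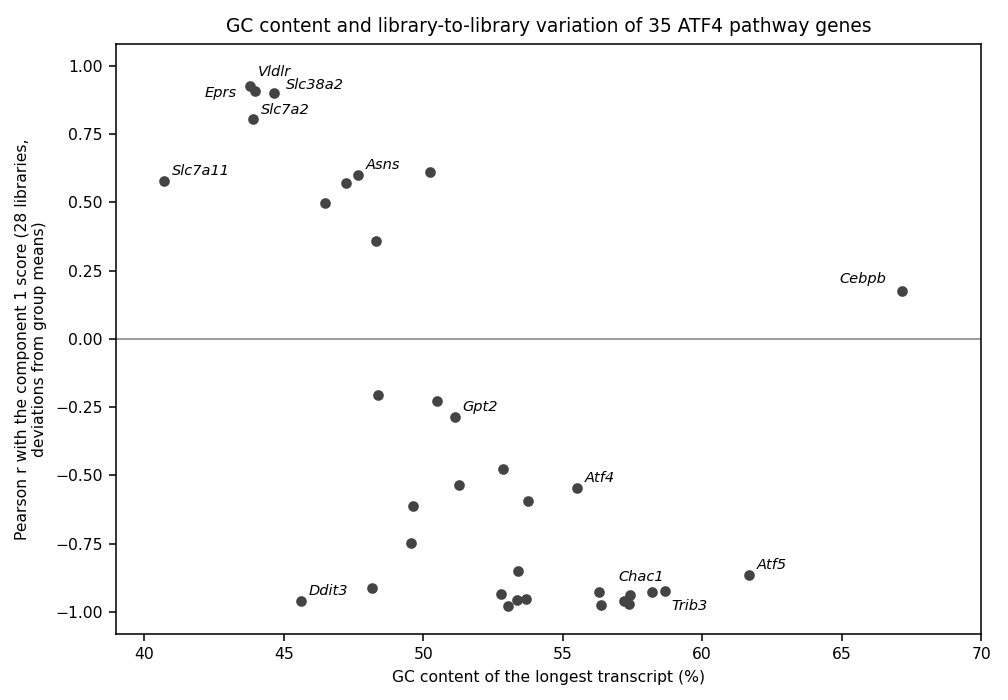
GC content of the longest transcript in percent (x axis) against Pearson's r with the first-component score over 28 libraries (y axis), 1 point per gene, 35 genes. Vldlr, Eprs, Slc38a2 and Slc7a2 lie at 43.8 to 44.7% GC with r of 0.80 to 0.93, while Trib3 and Atf5 lie at 58.2 and 61.7% with r of -0.93 and -0.86; Ddit3 and Cebpb lie away from the other points.

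The 3 libraries at the top of the component show the size of this variation. Chac1 stood at 2.91, 3.33 and 3.65 log2 CPM in control S961 replicate 2, control saline replicate 4 and control S961 replicate 8, against medians of 5.19 in control S961 and 5.16 in control saline. Eprs stood at 9.30, 8.86 and 8.95 log2 CPM in the same libraries, against medians of 8.68 and 8.61. All 3 are labelled control. The part of GC-dependent differences between libraries in the genotype results was not tested further. The values given are those with and without these libraries, under the GC correction and, in the closing part, with the first component as a covariate.

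Relative to Atf4 mRNA, 28 of the other 34 members (82.4%) had positive r and 6 negative over the same 28 libraries, beside 49.4% of all genes with positive r. It was 31 and 3 (91.2% positive), beside 50.9%, with the 3 libraries that stood apart left out. Atf4 itself had r of -0.55 with the component score (-0.41 without the 3), and the part of the component in these shares was not tested. The highest were the carrier heavy chain Slc3a2 (0.84), Eif4ebp1 (0.76), Psph (0.75) and Trib3, Psat1 and Mthfd2 (0.73, 0.73 and 0.72). The lowest were Slc7a2 (-0.62), Vldlr (-0.56) and Eprs (-0.42). These were, without the 3 libraries, 0.82 for Slc3a2, 0.72 for Eif4ebp1, 0.73 for Psph, 0.71 for Trib3, 0.76 for Psat1, 0.66 for Mthfd2, -0.54 for Slc7a2, -0.41 for Vldlr and -0.25 for Eprs. Slc38a2 (-0.29 with all libraries, 0.045 without the 3), Slc7a11 (-0.076, 0.14) and Cebpb (-0.033, 0.094) changed sign. Within groups the 35 members varied about as much as other genes, with a median SD of 0.315 on the log2 scale, beside 0.361 over all genes tested.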

How the data were processed

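The authors deposited log2 CPM values of 14219 genes in 28 islet libraries. STAR 2.5.3a, HTSeq 0.9.1 and edgeR, and the build GRCm38, are named in the submitters' processing notes. The deposited log2 values had the form log2 of (count + 0.5) over a scaled library size, and inverting it gave whole reads within 0.05 for 100% of values, with 28868638 to 45001633 reads per library. Every column matched 1 library title. No 2 libraries of a group agreed within sampling noise. Each library is 1 mouse.

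The filter asked for 1 CPM or more in 6 or more libraries and kept 13591 genes, removing 628. A limma model (version 3.58.1, R 4.3.3) of the 4 group means, with an intensity trend, gave 5 contrasts from the 28 libraries. Tests were two-sided, with Benjamini-Hochberg adjustment over all genes kept and a call below 0.05. The fit was tested on simulated data. Coordinates, transcript lengths and GC content are from GENCODE M21, and promoter sequences from RefSeq (GRCm38.p6), of which 1 window is not reported here. The members, lists and tests were chosen with earlier results of these data known. Named were Atf4, Ddit3, Trib3, Asns and Chac1, every member called, and the smallest p of a role group with none. Alternatives covered low values, filters, scaling, covariates, weights, GC content in 20 bins and libraries left out. The first component as a covariate was added after seeing the data.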

Additional observations from a re-analysis of the deposited data

Results flagged for a closer look

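In control saline replicate 4, 4 genes stood far from the other 5 libraries of their group by Dixon's test. Chance flags about 1 in 20 groups, and 4 of 40 tested were flagged, all in this library. Ddit3 was at 2.49 log2 CPM, with the nearest library at 4.04. Trib3 was at 3.95 (nearest 4.89), Chac1 at 3.33 (nearest 4.98) and Atf5 at 6.23 (nearest 7.01). This library had the second-highest score on the first component, 98.4, and the part of that in these values was not tested.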

How the results depend on the processing

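For members called after saline, the count of 0 became 1 when just the groups compared were fitted, 1 with the replicate block (Gpt2, adjusted p = 0.0475), 3 under the GC correction (Gpt2, Slc7a2, Eprs) and 8 with the first component as a covariate, a fit chosen after seeing the data. In that order, 2.86%, 2.86%, 8.57% and 22.9% of members passed, beside 3.44%, 2.6%, 10.1% and 20.8% of all genes. After S961 the count of 2 became 0 with just the groups compared, 1 under median centring, 4 under the GC correction, 9 with the first component, and 3 with lane, with the replicate block or without the 3 libraries of highest score. In that order, 0%, 2.86%, 11.4%, 25.7%, 8.57%, 8.57% and 8.57% of members passed, beside 0.258%, 3.47%, 18.8%, 28.2%, 4.93%, 4.52% and 6.31% of all genes. The count was 2 (5.71%) under quantile scaling (2.91% of all genes), voom weights (5.41%) and all filters (4.04% to 4.48%). Leaving out 1 library gave 0 to 3 after S961 (0 without control S961 replicates 2 or 3 or βKlf6KO S961 replicates 6, 7 or 8) and 0 to 0 after saline. In those fits 1.3% to 6.01% of all genes passed after S961 and 1.57% to 3.91% after saline. For the S961 responses and their difference the count of members was 0 under every setting run, with no fit of just the groups compared for the difference.

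The main fit did not pair libraries by replicate number. Between genotypes, r of same-numbered deviations was over 0.1 in 1 of 6 pairs after saline and 2 of 8 after S961. Between S961 and saline it was over 0.1 in 3 of 6 pairs in βKlf6KO (-0.606 to 0.563) and 2 of 6 in control. The first component is part of these deviations, so these r cannot decide whether libraries were paired.

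Over all genes, calls after saline numbered 378 (284 higher, 94 lower), but 117 at a filter of 5 CPM, 690 without the 3 libraries, 1370 under the GC correction (785 higher, 585 lower) and 2821 with the first component (1227 higher, 1594 lower). After S961 they numbered 593 (320 higher, 273 lower), but 35 with just the groups compared, 395 under quantile scaling (176 higher, 219 lower), 3829 with the first component and 2549 under the GC correction (1190 higher, 1359 lower). S961 against saline in βKlf6KO gave 11 with values floored at 1 CPM, against 0.

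Among named members, small uncalled log2 differences changed sign, and the cause was not tested. For βKlf6KO against control after saline these were Trib3 (-0.01 without the 3 libraries, -0.003 under the GC correction, -0.081 with the first component) and Atf4 (-0.049, GC). After S961 they were Ddit3 (-0.08 without the 3, -0.074 first component) and Atf4 (-0.057, GC). For S961 against saline in βKlf6KO they were Atf4 (0.009 lane, 0.001 voom, 0.069 GC, 0.016 first component), Slc7a2 (0.008 lane, 0.01 block), Ddit3 (-0.029 block) and Asns (-0.022 block). In control they were Chac1 (0.003 quantile, 0.155 without the 3, 0.144 GC, 0.207 first component), Eprs (-0.026, -0.081, -0.058 and -0.047 in the same order), Atf4 (0.078, GC) and Atf5 (0.098, GC). For the difference of the S961 responses they were Eprs (-0.008) and Atf5 (-0.038) under median centring, Atf5 without the 3 and with the first component (-0.037 in both), and Atf4 (-0.008) and Atf5 (-0.143) under the GC correction.

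With 1 library left out, ranges that crossed 0 were, after saline, Trib3 -0.01 to 0.237 and Stc2 -0.172 to 0.012. In βKlf6KO they were Atf4 -0.067 to 0.038, Ddit3 -0.04 to 0.187, Asns -0.009 to 0.094 and Slc7a2 -0.065 to 0.062. In control they were Chac1 -0.368 to 0.224 and Eprs -0.062 to 0.086. For the difference of responses they were Chac1 -0.39 to 0.201, Gpt2 -0.099 to 0.041, Eprs -0.023 to 0.125 and Atf5 -0.091 to 0.156. Of the other settings' values, 535 kept direction and call, and of the fits without 1 library 1314. The lowest value of any member was 2.61 CPM, and the interval for Chac1 after S961 was -0.21 to 1.34. Each library is 1 mouse, so spread between mice and spread between libraries cannot be told apart.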
